A study of Sus scrofa with 8 samples.

Results

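miR-574-3p was 1 of the 13 immune-related miRNAs that the study followed by q-PCR in porcine milk exosomes, and its reads were examined here in all 8 small RNA libraries. A read was assigned to miR-574-3p when, after removal of the 3′ adaptor, it left an insert of 18 to 26 nt that began with the first 18 nt of the sequence listed for this miRNA among the study's primers. This rule took 84 distinct inserts of 1697899 in the 8 libraries, and 169654 of the 4691483 counts that the same rule gave to all 13 miRNAs. None of the other 12 listed miRNAs begins with the same 18 nt. 3 libraries were made from single Yorkshire sows on the day of birth (0d-1, 0d-2 and 0d-3, called colostrum), and 1 library was made at 3 days (3d, also colostrum) and at each of 7, 14, 21 and 28 days (7d, 14d, 21d and 28d, mature milk). The RNA of each of these later stages was pooled, so that only 0 days had replicates. In the tests of colostrum against mature milk the stages therefore served as replicates of their milk class, and the p-values measure the spread between such libraries. By the methods of the study the milk of all stages came from the same 3 sows, so that the libraries share animals and are not independent samples of sows. Exosomes, vesicles released by cells into body fluids, were precipitated from the milk with ExoQuick.

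miRNAs are short RNAs that guide Argonaute proteins to messenger RNAs, mainly through the seed (bases 2 to 8), and thereby repress them. The miR-574 hairpin gives a mature miRNA from each arm, and miR-574-3p is that of the 3′ arm. In the RefSeq annotation of Sscrofa11.1 the pig gene MIR574 lies inside FAM114A1, a protein-coding gene. Coordinates are not given because the study used an older assembly. The 3′ end of a mature miRNA can vary by trimming or by addition of single bases, most often A or U, after the hairpin has been cut, and such variants share the seed.

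The listed sequence is shown first beside that of miR-25-3p, the listed miRNA whose share of the 13 followed its own most closely over the 8 libraries, with the seeds in capitals.
miR-574-3p: cACGCTCAtgcacacacccaca
miR-25-3p: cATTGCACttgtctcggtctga
The 2 seeds differ at 6 positions, and none of the other 12 listed miRNAs has the seed of miR-574-3p. miR-574-3p, with 11 cytosines, 7 adenines, 2 guanines and 2 thymines (uracils in the RNA), had the highest share of A and C of the 13 (81.8%, against 22.7 to 72.7%). It also held 7 CA steps, against 0 to 3 in the others. The 6 leading inserts, which differ at the 3′ end only, are shown because the variants described below rest on them. Capitals mark the bases after the 18 nt used for the match.
listed form: cacgctcatgcacacaccCACA
added A: cacgctcatgcacacaccCACAA
added T: cacgctcatgcacacaccCACAT
1 nt shorter: cacgctcatgcacacaccCAC
2 nt shorter: cacgctcatgcacacaccCA
last base T in place of A: cacgctcatgcacacaccCACT
Together these 6 inserts held 98.3 to 99.1% of the counts of miR-574-3p in every library. Of the 84 distinct inserts, 9 were seen in all 8 libraries, 38 in 1 library and 18 only once. In a single library 19 (3 and 7 days) to 69 (0d-3) distinct inserts were found.

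The libraries held from 14590531 to 28141425 reads, and the read length was 36 nt at 7 and 21 days and 40 nt in the other 6 libraries. Since both libraries of 36-nt reads are of mature milk, read length and milk class cannot be fully told apart, and values for the 6 libraries of 40-nt reads are given where they matter. Library 0d-3 stood apart from the others. Inserts of 18 to 26 nt made up 76.3% of its reads, against 3.49 to 18.4% elsewhere, and miR-148a-3p, a miRNA abundant in milk, made up 0.102% of its counts of the 13 miRNAs, against 62.0 to 74.4%. The comparisons of colostrum with mature milk are therefore given with and without 0d-3. In the other 7 libraries, 41.8 to 73.1% of the inserts of 18 to 26 nt began with a run of 5 nt that is here called a leader (the 4 most frequent inserts of exactly that length served as leaders). In 0d-3 the figure was 0.105%.

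miR-574-3p was found in every library, at ranks 7 to 9 of the 13 miRNAs. The 3 sows at 0 days gave 5517 counts (0d-1), 7908 counts (0d-2) and 137872 counts (0d-3). Library 3d had 1827 counts, 7d had 1794, 14d had 3912, 21d had 3821 and 28d had 7003. The count of 0d-3 exceeded those of all other libraries together. Among the 13 miRNAs, the share of miR-574-3p was 2.02% for 0d-1, 1.92% for 0d-2, 4.48% for 0d-3 and 1.72% for 3d. The mature milk libraries had 1.75% (7d), 2.20% (14d), 1.77% (21d) and 2.13% (28d). The 95% Wilson intervals, which cover counting error only since reads lacking molecular identifiers can be copies of the same molecule, were narrow at this depth, from 1.65 to 1.81% for 3d, the lowest, and from 4.46 to 4.50% in 0d-3.

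By this share 0d-3 was highest, followed by 14d, 28d, 0d-1, 0d-2, 21d, 7d and 3d, so that colostrum and mature milk overlapped. The neighbours 21d, 7d and 3d differed by 0.0208 and 0.0292 percentage points, less than the SD of 0.0715 between 0d-1 and 0d-2 (n = 2). The remaining steps below 0d-3, from 0.0728 to 0.147 points, were larger than that SD. All steps below 0d-3 were smaller than the SD of 1.45 over the 3 sows at 0 days, whose mean was 2.81% (n = 3). That wider SD includes 0d-3 itself. Colostrum had a mean share of 2.54% ± 1.30 against 1.96% ± 0.233 for mature milk (SD, n = 4 each), a log2 ratio of 0.37. The difference was within the spread of the libraries (two-sided exact permutation test, p = 0.714, adjusted over 2 totals 0.943), where 4 against 4 cannot go below 0.0286. Without 0d-3 colostrum had 1.89% ± 0.152 (SD, n = 3), and the log2 ratio was -0.056 (exact permutation test, p = 0.629), so that the higher mean in colostrum rested on 0d-3. In the 40-nt libraries without 0d-3, colostrum stayed at 1.89% and mature milk was at 2.17% ± 0.0515 (SD, n = 2). These groups did not overlap, and the p was 0.2 (exact permutation test, two-sided as 2 times the smaller tail, which for 3 against 2 cannot go below 0.2).

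The total to which miR-574-3p is related changed the order of the libraries. When miR-148a-3p was left out of the total, miR-574-3p made up 5.52% (0d-1), 5.35% (0d-2), 4.49% (0d-3) and 5.69% (3d) in colostrum. The mature milk libraries then had 6.84% (7d), 5.87% (14d), 5.66% (21d) and 5.60% (28d). Library 0d-3, the highest on the total of 13, was thus the lowest on the total of 12, and 7d was the highest. Colostrum had a mean of 5.26% ± 0.534 against 5.99% ± 0.578 for mature milk (SD, n = 4 each), a log2 ratio of -0.19, with overlapping groups (two-sided exact permutation test, p = 0.0857). Without 0d-3 colostrum had 5.52% ± 0.166 (SD, n = 3) and the p was 0.171 (exact permutation test).

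In counts per 1000000 inserts of 18 to 26 nt (CPM), miR-574-3p was at 1672 in 0d-1, 1776 in 0d-2, 9910 in 0d-3 and 1102 in 3d. It was at 2144 CPM in 7d, 1609.5 in 14d, 2910 in 21d and 1912.5 in 28d. Colostrum had a mean of 3615 ± 4207 CPM and mature milk of 2144 ± 556 (SD, n = 4 each), and the difference was again within the spread (two-sided exact permutation test, p = 0.943, adjusted over 2 totals 0.943). The direction turned without 0d-3, with 1516 ± 363 CPM in colostrum (SD, n = 3) and a log2 ratio of -0.50 (exact permutation test, p = 0.171). When the inserts that began with a leader were taken out of the total, the values of mature milk lay close together, from 4698 to 4999 CPM with a mean of 4901 ± 139 (SD, n = 4). On that total 0d-1 and 0d-2 were at 5254 and 5545 CPM, 3d was at 4100 and 0d-3 at 9920. Colostrum without 0d-3 then had 4966 ± 764 (SD, n = 3), a log2 ratio of 0.019 (two-sided exact permutation test, p = 0.971).

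**Figure D1:**
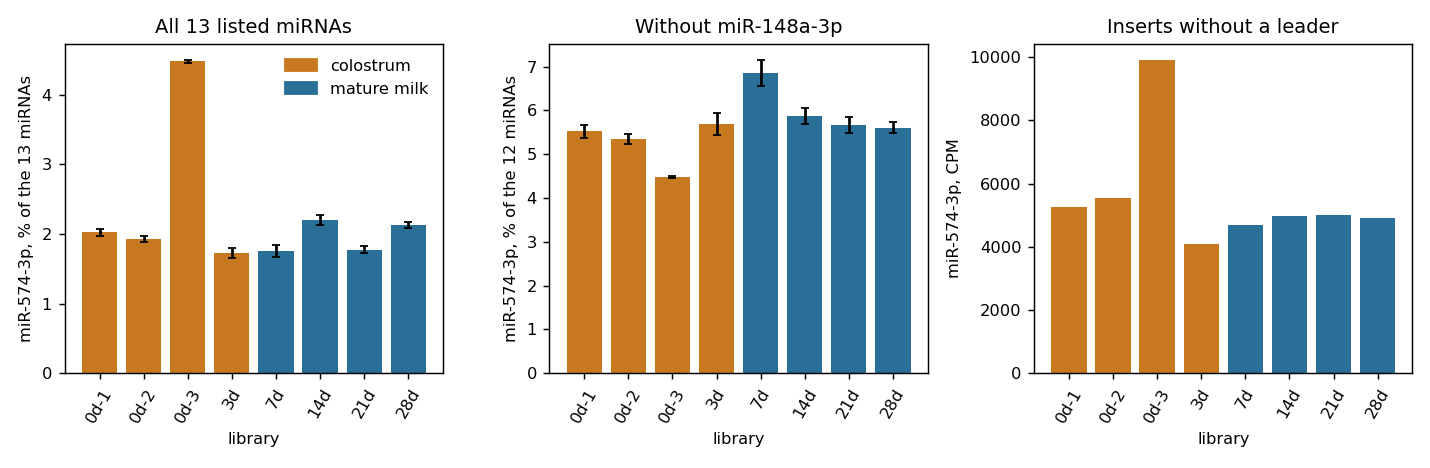
Level of miR-574-3p in each library (colostrum orange, mature milk blue), as % of the 13 listed miRNAs, as % of the 12 left without miR-148a-3p, and in CPM of the inserts of 18 to 26 nt that did not begin with a leader. Bars are single libraries and whiskers 95% Wilson intervals (counting error). Library 0d-3 is the highest in the first and last panels (4.48% and 9920 CPM) and the lowest in the middle one (4.49%).

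Counts were also tested together with those of all other inserts, grouped into units by their first 18 nt, with edgeR's quasi-likelihood test. Of the 15212 units tested, 0 (0%) passed an adjusted p of 0.05, 260 had an unadjusted p under 0.05, and DESeq2 called 36 of the 7744 units to which it gave an adjusted p. The log2 fold change of miR-574-3p (colostrum over mature milk) was 2.25 with an SE of 1.90 (edgeR, Benjamini-Hochberg adjusted p = 0.975), while the median of all units was -0.33. Without 0d-3 it was 0.036 with an SE of 0.532 (edgeR, adjusted p = 1), with a median of 0.30 over all units. DESeq2 gave a log2 fold change of 1.83 with an SE of 1.04 and no p-value for this unit. The edgeR value over all 8 libraries depended on the scaling. It was 0.73 by library size only and 1.83 by RLE, another scaling. With more than 10 counts it was 0.82, and without a filter 1.16. The TMM factors behind the 2.25 were 0.342 in 0d-3 and 0.438 in 3d, against 1.02 (21d) to 1.57 (14d) elsewhere. The SEs of edgeR were derived from the fold change and its F statistic.

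Among the other 12 listed miRNAs, the 3 whose log2 share of the 13 was most similar over the 8 libraries were miR-25-3p, a member of the miR-106b-25 cluster (Pearson r = 0.991), let-7a-1-5p, of the let-7 family of developmental timing (r = 0.989), and miR-200c-3p, which is typical of epithelial cells (r = 0.984). These are descriptions over 8 points that share the total, and 0d-3 lies far from the others. Without 0d-3 the coefficients were 0.966, 0.865 and 0.786 (n = 7). On the total without miR-148a-3p they were -0.492, -0.376 and -0.803 over 8 libraries, and 0.944, 0.418 and -0.401 without 0d-3. On the total without miR-148a-3p the coefficient of miR-27b-3p was higher than that of miR-25-3p, with 0.831 over 8 libraries and 0.987 without 0d-3. The ratio of counts of miR-574-3p to those of miR-25-3p was 0.505 to 0.544 in 7 libraries and 0.252 in 0d-3, and the ratio to miR-27b-3p was 1.96 to 2.49 over all 8. Against let-7a-1-5p the ratio was 1.29 to 1.555 in 7 libraries and 0.913 in 0d-3, and against miR-200c-3p it was 0.972 to 1.43 and 0.308. Relative to all 3, miR-574-3p was thus lowest in 0d-3.

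**Figure D2:**
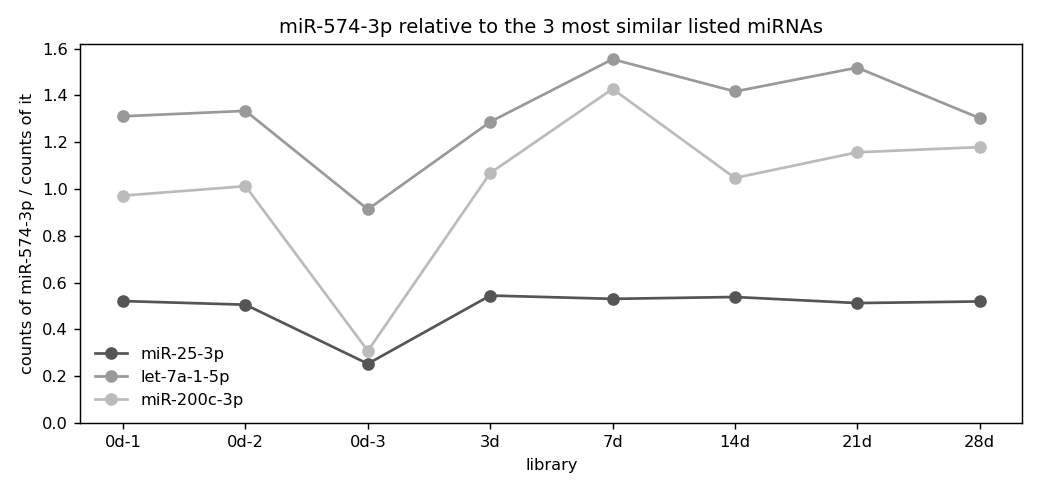
Counts of miR-574-3p divided by the counts of miR-25-3p, let-7a-1-5p and miR-200c-3p in each library, on a linear axis from 0. The ratio to miR-25-3p stays between 0.505 and 0.544 except in 0d-3 (0.252).

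Most copies of miR-574-3p had the listed sequence from end to end. Their share was 86.7% for 0d-1, 87.5% for 0d-2, 91.6% for 0d-3 and 86.6% for 3d. The mature milk libraries had 88.6% (7d), 87.8% (14d), 88.3% (21d) and 87.6% (28d). Library 0d-3 was again apart, whereas the other 7 libraries lay within 2 percentage points. Copies longer than the listed sequence made up 8.83% of 0d-1, 8.30% of 0d-2, 2.95% of 0d-3 and 8.16% of 3d. In mature milk the values were 6.08% (7d), 8.26% (14d), 8.11% (21d) and 7.47% (28d). Shorter copies were less frequent than longer ones in all libraries except 0d-3, with 1.99% (21d) to 3.90% (7d), and 3.605% in 0d-3. The ratio of shorter to longer copies was 1.22 in 0d-3 and 0.245 to 0.642 elsewhere. The mean length was 21.98 nt in 0d-3 and 22.00 to 22.06 nt in the others.

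The longer copies were mainly those with a single added A or T (U in the RNA). An added A was found in 5.80% of the copies of 0d-1, 4.92% of 0d-2, 1.89% of 0d-3 and 5.80% of 3d. In mature milk the values were 4.35% (7d), 5.11% (14d), 5.13% (21d) and 4.71% (28d). An added T was found in 0.825% in 0d-3 and in 1.62% (7d) to 2.72% (0d-2) in the other libraries. In all 8 libraries an added A was more frequent than an added T, and an added C or G was at or below 0.127%. Of the shorter copies, loss of 1 nt was more frequent than loss of 2 nt in all 8 libraries, from 0.995% to 2.63% against 0.639% to 1.39%. A last base T in place of A was found in 0.836 to 1.37%. Whether the added bases match the genome was not determined, since the hairpin sequence was not used here.

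Between colostrum and mature milk, the shares of the listed form were 88.1% ± 2.35 and 88.1% ± 0.430 and those of added A 4.60% ± 1.86 and 4.83% ± 0.372 (SD, n = 4 each). The differences in all 6 end measures (listed form, shorter, longer, added A, added T and mean length) were within the spread of the libraries (two-sided exact permutation tests, adjusted p = 1 for each). Without 0d-3 the listed form had a share of 86.9% ± 0.457 in colostrum (SD, n = 3) and of 88.1% ± 0.430 in mature milk (SD, n = 4). These 2 groups did not overlap, with 87.5% as the highest colostrum value and 87.6% as the lowest of mature milk. The p was 0.0571, the smallest that 3 against 4 allows in this two-sided exact permutation test, or 0.343 when adjusted over the 6 measures. An added A was then at 5.51% ± 0.509 against 4.83% ± 0.372, with overlapping groups (exact permutation test, adjusted p = 0.343). Longer copies were at 8.43% ± 0.354 against 7.48% ± 0.996 and an added T at 2.48% ± 0.350 against 2.27% ± 0.454 (exact permutation tests, adjusted p = 0.343 and 0.8). Without 0d-3 these 3 shares were thus higher in colostrum, and with it they were lower. Shorter copies were at 2.68% ± 0.570 against 2.81% ± 0.827, and the mean length was 22.05 ± 0.0119 nt against 22.03 ± 0.0238 nt (exact permutation tests, adjusted p = 0.8 and 0.429).

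**Figure D3:**
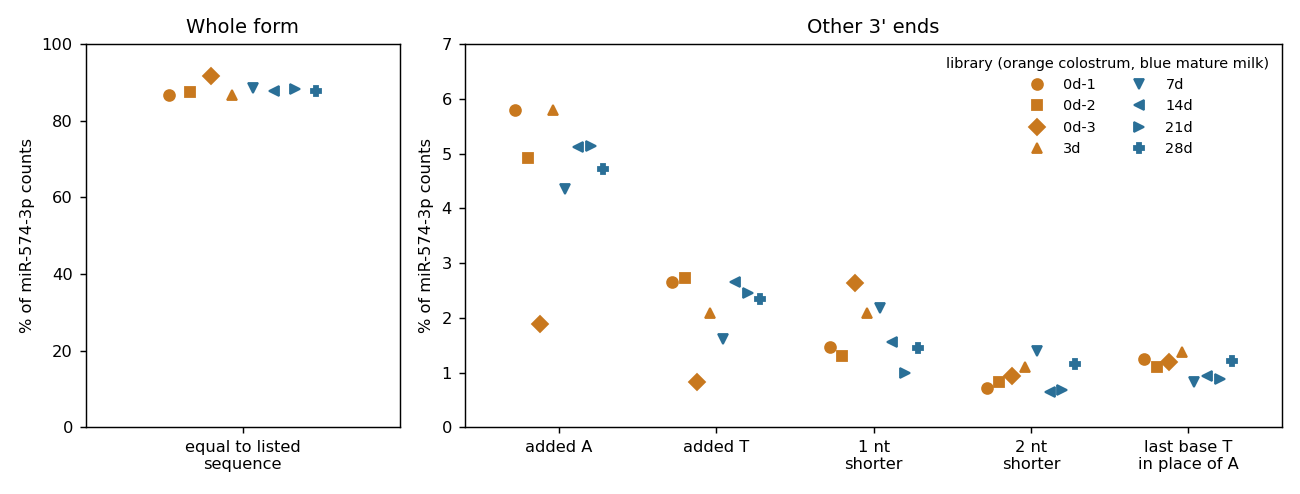
Share of the counts of miR-574-3p with the listed sequence (left) and with the 5 next most frequent 3′ ends (right) in each library, 1 symbol per library. Library 0d-3 (orange diamond) has the most copies of the listed form (91.6%) and the fewest with an added A (1.89%) or T (0.825%).

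miR-574-3p had more uniform ends than most of the listed miRNAs. The share of copies equal to the listed sequence exceeded the median of the other 12 in 8 of 8 libraries, by 29.3 ± 3.24 percentage points (SD, n = 8), and ranked 2 to 4 of the 13. That median was between 54.45 and 61.5%. The difference was tested by an exact permutation of its signs over the libraries, two-sided, a comparison chosen after seeing the data (p = 0.00781, the smallest that 8 libraries allow, adjusted over 7 measures 0.0137). Any listed miRNA on the same side of the median in all 8 libraries would reach this p. Such a test thus measures the agreement of libraries that share sows, and the standing of miR-574-3p among the 13 is given by its ranks. The share of the most frequent form, whatever its sequence, gave a similar difference of 29.2 ± 3.11 points (exact permutation test, n = 8, adjusted p = 0.0137), so that the comparison did not depend on which form had been listed. For let-7a-1-5p and miR-27b-3p the match also takes copies of let-7c and miR-27a, which adds to their forms. Shorter copies and added bases were counted from each listed sequence, so that their comparisons do depend on which form had been listed. In 0d-1, for example, 45.2% of the copies of miR-30c-5p were shorter and 47.7% of those of miR-191-5p were longer. Shorter copies were fewer than the median of the other miRNAs in 8 of 8 libraries, with a difference of -7.27 ± 1.10 points (SD; exact permutation test, n = 8, adjusted p = 0.0137). An added A was more frequent by 3.17 ± 1.43 points and an added T by 1.21 ± 0.692 points, each higher in 7 of 8 libraries (exact permutation tests, n = 8, adjusted p = 0.0182). In both cases the exception was 0d-3, without which the differences were 3.64 and 1.42 points, against 28.7 points for the listed form (exact permutation tests, n = 7, adjusted p = 0.0156). Among the 40-nt libraries alone, the differences were 28.4 points for the listed form and 3.055 points for an added A, with adjusted p-values of 0.0547 and 0.0729 (exact permutation tests, n = 6). The value for the listed form came from the smallest p that 6 libraries allow.

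Copies of miR-574-3p were also found further inside inserts, where the rule did not count them. Such copies made up 9.30% of all copies of 0d-1, 10.5% of 0d-2, 0.129% of 0d-3 and 4.35% of 3d. In mature milk the values were 1.64% (7d), 8.85% (14d), 1.70% (21d) and 10.8% (28d). Library 0d-3 was lowest, followed by the 36-nt libraries 7d and 21d and then by 3d, and the part of read length in these values was not tested. Colostrum and mature milk overlapped, with 6.08% ± 4.78 and 5.76% ± 4.79 (SD, n = 4 each; two-sided exact permutation test, p = 0.886). Without 0d-3 colostrum had 8.06% ± 3.27 (SD, n = 3; exact permutation test, p = 0.4). In the 40-nt libraries the direction turned, with 6.08% (n = 4) against 9.84% ± 1.40 (SD, n = 2; exact permutation test, p = 0.533). Except in 0d-3, most of these copies stood directly behind 1 of the 4 leaders. As a share of the copies at the first base or behind a leader, those behind a leader were 7.60% in 0d-1, 8.86% in 0d-2, 3.44% in 3d, 0.939% in 7d, 7.08% in 14d, 1.16% in 21d and 9.005% in 28d. The leader before miR-574-3p was most often AAGCT, with 237 copies of the 454 in 0d-1, and in 3d it was most often TCAAG, with 27 copies of 65. In 0d-3 they were 0 of 137875, which allows a share of up to 0.00217%. Copies that began at base 2 of miR-574-3p, and so had a shifted seed, were counted only if they held the whole rest of the listed sequence. They amounted to 0.667 to 1.37% of all copies that began at its first base, whatever their 3′ end. Base-2 copies with a shorter or changed 3′ end are thus left out.

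miR-574-3p was found behind a leader less often than most of the 13 miRNAs. It ranked 10 of 13 in 6 libraries and 11 in 7d, and was below the median of the other 12 in 7 of 7 libraries, with a difference of -7.82 ± 4.18 percentage points (SD; exact permutation of signs, n = 7, two-sided, p = 0.0156, the smallest that 7 libraries allow; chosen after seeing the data). A miRNA below that median in all 7 libraries always reaches this p, so it measures only the agreement of libraries that share sows. miR-21-5p, widely expressed in animal tissues, had the highest share in 6 of these libraries, up to 92.5% in 0d-2, and let-7a-1-5p had the highest at 3 days with 64.7%. When copies behind a leader were counted for all 13 miRNAs, miR-574-3p fell to 1.61 to 2.0% of the 13 in the 7 libraries and to ranks 7 to 12. Its share without these copies was 1.72 to 2.20% in the same libraries. The origin of the reads with a leader was not determined, and whether they come from the sampled milk was not tested.

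**Figure D4:**
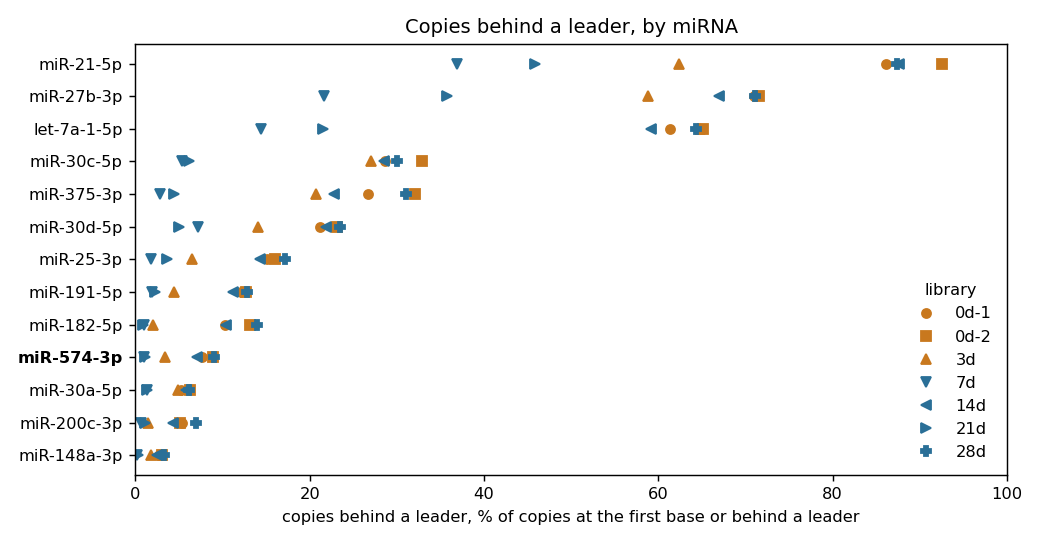
Copies behind a leader as % of the copies at the first base or behind a leader, for the 13 listed miRNAs in the 7 libraries with leaders (colostrum orange, mature milk blue). miR-574-3p lies between 0.939% and 9.005%, below 9 of the other 12 in 6 libraries. For each miRNA the 36-nt libraries (7 and 21 days) lie below the other libraries shown, with up to 45.9% (miR-21-5p, 21 days).

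The copies behind a leader differed at the 3′ end from those at the first base of the insert, in all 7 libraries. Behind a leader the listed form made up 59.0% in 0d-1, 61.1% in 0d-2, 53.8% in 3d, 67.4% in 14d and 66.2% in 28d. It made up 29.4% in 7d, from 17 copies only (95% Wilson interval 13.3 to 53.1%), and 53.3% in 21d, from 45 copies. All these shares lay below the 86.6 to 88.6% of copies at the first base in the same libraries, and the mean was 55.8% ± 12.8 against 87.6% ± 0.726 (SD, n = 7). Shorter copies amounted to 33.5% ± 14.4 behind a leader and 2.75% ± 0.674 at the first base. The form shorter by 2 nt alone reached 12.4 to 18.5% behind a leader, against 0.639 to 1.39%. Copies with an added A were almost missing behind a leader, with 0.353% ± 0.462 against 5.12% ± 0.537. Each of these differences had the same direction in 7 of 7 libraries (exact permutation of signs, two-sided, p = 0.0156, adjusted over 4 measures 0.0156; chosen after seeing the data). Among the 5 libraries of 40-nt reads the listed form had 61.5% ± 5.54 against 87.3% ± 0.538 and shorter copies had 26.9% ± 3.35 against 2.68% ± 0.446 (SD, n = 5; exact permutation of signs, p = 0.0625, the smallest that 5 libraries allow).

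**Figure D5:**
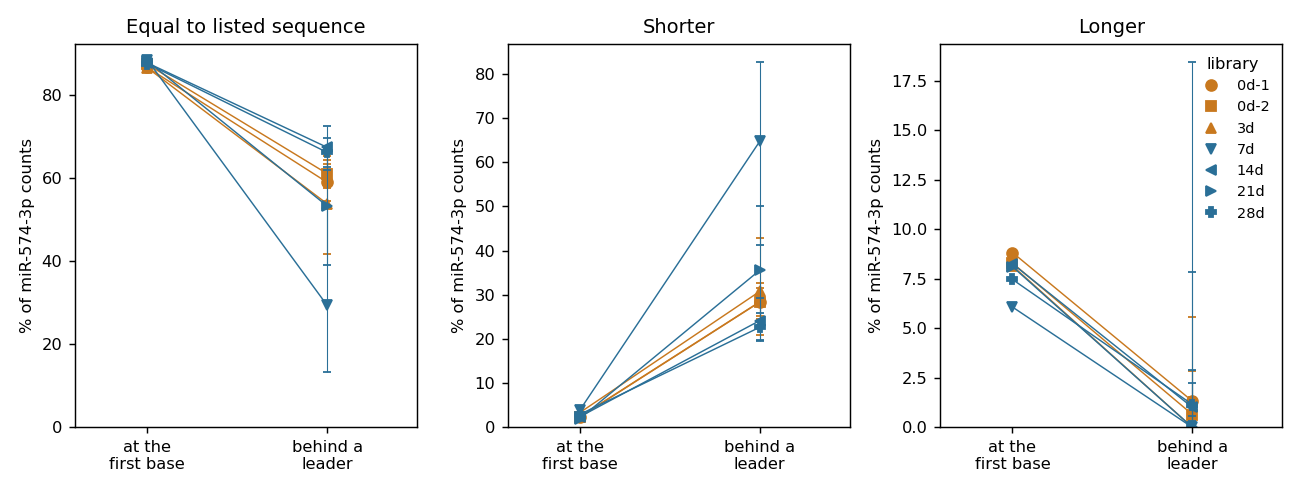
Share of the copies of miR-574-3p that equal the listed sequence, are shorter or are longer, at the first base of the insert and behind a leader, with a line for each of the 7 libraries that have leaders. Whiskers are 95% Wilson intervals of the copies behind a leader. In every library the listed form is less frequent and the shorter form more frequent behind a leader, and the widest intervals belong to 7d (17 copies).

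Inserts with a single mismatch in the first 18 nt, counted from 1 at the 5′ end, amounted to 1.75% (3d) to 5.60% (0d-1) of the exact matches and were not included above. The substitution A8C, in the last base of the seed, was among the 3 most frequent in 0d-1, 0d-2, 3d, 14d, 21d and 28d, at 0.183 to 0.506% of the exact matches. It rested on only 6 counts in 3d, 7 in 21d and 10 in 14d, so that its rank there is uncertain. In 0d-3 the most frequent were T9G with 0.421%, T6G with 0.318% and C17G with 0.316%. Base-call quality was not analysed here, so that sequencing errors and variants of the RNA cannot be told apart.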

How the data were processed

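The authors deposited, for each of the 8 libraries, the raw count of every distinct read sequence, with identical reads combined and not normalized. No adaptor had been removed, and sequences seen once were present. Groups follow the age in the labels and the division of the study (0 and 3 days colostrum, later days mature milk). The adaptor was read from the bases that follow the listed miRNA sequences and cut at its first exact match of 8 nt. Inserts of 18 to 26 nt were matched by their first 18 nt to the 13 miRNAs of the study's q-PCR list. Reads of miR-574-3p in which no adaptor was found (13 to 351 per library) were not counted.

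Totals, shares and 3′ ends were compared by two-sided exact permutation tests. For all units (inserts grouped by their first 18 nt), counts were filtered by filterByExpr, scaled by TMM and tested by the quasi-likelihood method of edgeR, with Benjamini-Hochberg adjustment at 0.05. This code was tested on simulated data. The miRNA, the lists and the tests were chosen with earlier results of these data known. Named were miR-574-3p, the 13 listed miRNAs and the 3 whose log2 share was most correlated with its own. Alternatives were other matches, insert lengths, adaptor matches of 6 or 12 nt, totals and normalizations, DESeq2, a minimum of more than 10 counts, the 40-nt libraries, and leaving out each library. The tools were edgeR 4.0.16, DESeq2 1.42.0 and limma 3.58.1 in R 4.3.3, and scipy 1.17.1, numpy 2.4.6 and matplotlib 3.10.9 in Python 3.11.15.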

Additional observations from a re-analysis of the deposited data

Results flagged for a closer look

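Within the 4 colostrum libraries, 0d-3 lay far from the other 3 in 5 of the 12 measures examined, by Dixon's criterion for a single outlying sample. These were the share of the 13 miRNAs (4.48%), the count (137872), the level per 1000000 inserts (9910), the share of copies with the listed sequence (91.6%) and the share of longer copies (2.95%). The criterion was applied to 24 groups of 4 libraries and marked 5, all through 0d-3, where chance marks about 1 group in 20 (5%). The 12 measures share the same counts, so the groups are not independent and the 5 cannot be weighed against that rate. The cause was not tested.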

How the results depend on the processing

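No comparison of colostrum with mature milk passed its threshold for miR-574-3p under any alternative. With 1 library left out, however, the exact permutation tests cannot go below 0.0571. In the 40-nt libraries they cannot go below 0.133, or 0.2 without 0d-3. In these settings they could not pass, so they cannot place a change of sign within or beyond the spread. Differences are colostrum minus mature milk, as log2 ratios for levels and as points or nt for ends. The share of the 13 miRNAs changed sign on the total without miR-148a-3p (-0.19), on that total without 0d-3 (-0.12) and in the 40-nt libraries without 0d-3 (-0.20). In the latter libraries the CPM of all inserts of 18 to 26 nt was -0.22, the edgeR log2 fold change -0.16, the listed form -0.78, longer copies 0.56, added A 0.59 and mean length 0.0089, all opposite in sign to the values over all libraries. The listed form also changed sign with more than 10 counts (-0.32) and an adaptor match of 12 nt (-0.015), and copies inside inserts did in the 40-nt libraries (-3.77). The units called were 66 in the 40-nt libraries without 0d-3, 36 with DESeq2 and 2 without a filter, against 0. The settings without 0d-3, other than leaving out each library in turn, were added after seeing the data.

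Leaving out 1 library in turn gave 0.036 to 2.73 for the edgeR fold change, -0.056 to 0.52 for the share, -0.50 (without 0d-3) to 1.05 for the CPM, -1.165 to 2.30 for copies inside inserts, -1.13 to 0.52 for the listed form, -0.17 to 0.47 for shorter, -1.01 to 0.95 for longer, -0.62 to 0.68 for added A, -0.42 to 0.21 for added T, and -0.011 to 0.016 nt for length. It was the library 0d-3 whose omission changed the edgeR log2 fold change from 2.25 to 0.036. The units called stayed at 0.

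The differences from the median of the other 12 miRNAs were, without 1 library, 28.6 to 29.9 points for the listed form, 28.6 to 29.8 for the leading form, -7.46 to -7.00 for shorter, 1.72 to 2.71 for longer, 2.98 to 3.64 for added A, 1.12 to 1.42 for added T and -1.79 to -1.38 for other ends. Longer copies passed only without 0d-3 (2.71, adjusted p = 0.0156, exact permutation test). In the 40-nt libraries none passed, with 28.4, 28.4, -6.755, 3.055, 1.18 and -1.72 for the listed form, leading form, shorter, added A, added T and other ends (lowest adjusted p 0.0547, exact permutation tests). This lowest value came from the smallest p that 6 libraries allow. Behind a leader against the first base, the ranges without 1 library were -33.7 to -27.3 for the listed form, 25.75 to 32.6 for shorter, -7.50 to -7.15 for longer and -4.89 to -4.59 for added A. In the 40-nt libraries they were -25.7, 24.2, -7.37 and -4.775. The share behind a leader differed from the median by -8.88 to -7.23 without 1 library and by -10.1 in the 40-nt libraries.

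The share of both arms of the hairpin and a list of miRNAs with the same seed were not run, because no table of mature miRNA sequences was used here. No paired analysis was possible because the numbers at 0 days have no counterpart at later stages. Depth limits mainly the copies behind a leader, of which 7, 21 and 3 days had 17, 45 and 65.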

Other observations

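The reads with a leader also differed from the others in another of the 13 miRNAs. This was miR-182-5p, of the miR-183 cluster, in copies that matched it before position 24 and were 24 nt or longer. The substitution T24C (listed base, position from the 5′ end, read base) was found in 97.3% of the 817 such copies behind a leader in 0d-1. It was found in 96.3% of 2080 in 0d-2, 96.0% of 25 at 3 days, 97.5% of 610 at 14 days and 98.0% of 1812 at 28 days. Among the copies at the first base of the insert it was found in 0.0110 to 0.125% in the 8 libraries. At 7 and 21 days and in 0d-3 no copy of this length was found behind a leader, and reads of 36 nt leave no room for one. This was looked at after the 3′ ends of miR-574-3p had been seen to differ, and the origin of the reads with a leader was not tested.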
